A study of Gossypium hirsutum with 3 samples.

Results

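The genes described here are the short genes of Cluster 1 on the A subgenome of allotetraploid upland cotton (Gossypium hirsutum cultivar TM-1). Cluster 1 is a group of genes that the study formed by k-means clustering of H3K4me3 ChIP-seq reads around transcription start sites, and it holds genes with broad H3K4me3 over the promoter. A gene was taken when its identifier placed it on chromosomes A01 to A09 and its listed length was below 1200 bp. This gave 478 of the 1928 Cluster 1 genes listed for these chromosomes, and 478 of the 70478 genes in each expression file. They were set against the 973 Cluster 1 genes of the same chromosomes with a length of 1200 to 4000 bp. The remaining 477 Cluster 1 genes were longer than 4000 bp. Neither the cluster list nor the length limit uses the expression values analysed here.

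Leaf RNA of 20-day-old TM-1 plants was sequenced in 3 replicate libraries of a single untreated condition, grown in a greenhouse, with no mutant, treatment or other tissue to compare. Expression is given in FPKM, fragments scaled to the kilobases of transcript and to the mapped fragments of the library, so it is already divided by transcript length. The labels do not say whether the libraries came from separate plants, so every SD measures only the spread between these libraries, which may be technical. All comparisons are therefore between sets of genes within each library, and genes are not replicates. With 3 libraries the exact two-sided sign-flip test over libraries cannot give a p below 0.25, and it gave 0.25 for the differences between short and longer genes in mean level, in the share at 0 and in the share at FPKM 1 or more.

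H3K4me3 is the trimethylated form of lysine at the fourth position of histone H3, and it typically sits near the start of genes that are being transcribed. In plants as in animals its level at a promoter tends to go with the transcript level of the gene. Upland cotton carries an A and a D subgenome that came together by hybridization of diploid relatives, so that most genes have a homeolog, the corresponding copy in the other subgenome.

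The short genes were more often listed at 0 in leaf than the longer Cluster 1 genes, and fewer of them reached an FPKM of 1. The files listed 97, 101 and 98 of the 478 short genes at 0 in replicates 1, 2 and 3, against 41, 49 and 56 of the 973 genes of 1200 to 4000 bp. These counts are 20.6% ± 0.435 of the short genes and 5.0% ± 0.771 of the longer ones (SD, n = 3 libraries), a difference of 15.6 ± 0.774 percentage points that was far larger than the spread between libraries. FPKM of 1 or more was found for 260, 260 and 257 short genes, or 54.2% ± 0.362, against 791, 793 and 763 longer genes, or 80.4% ± 1.72. The difference in that share was -26.2 ± 1.36 percentage points, and the short genes had the lower share in every library. Below 1, zeros included, were 218, 218 and 221 short genes (45.8% ± 0.362) and 182, 180 and 210 longer genes (19.6% ± 1.72).

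The zeros were only part of the low end. A further 25.2% ± 0.639 of the short genes lay above 0 and below 1, against 14.6% ± 1.19 of the longer genes. The middle of the range, from 1 to below 10 FPKM, held 33.8% ± 0.639 of the short genes and 53.1% ± 1.04 of the longer genes. The top of the range differed least, with 20.4% ± 0.320 of the short genes and 27.3% ± 1.2 of the longer genes at 10 FPKM or more.

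**Figure D1:**
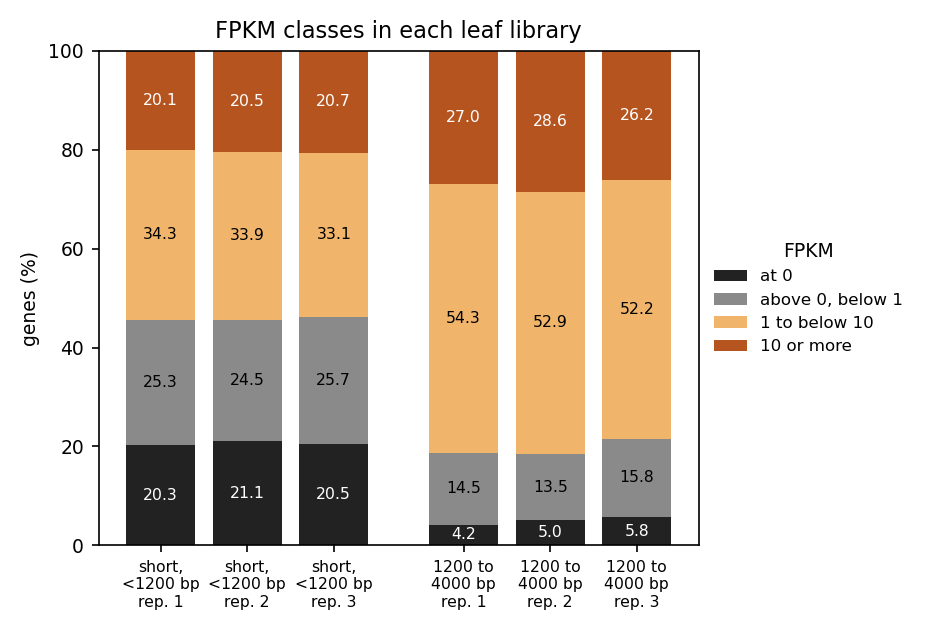
Share of genes (%) in each FPKM class, stacked to 100%, in each of the 3 leaf libraries, for the 478 short genes (left bars) and the 973 genes of 1200 to 4000 bp (right bars). The black and grey classes together hold 45.6 to 46.2% of the short genes in a library, against 18.5 to 21.6% of the longer genes.

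On the log2(FPKM + 1) scale the short genes averaged 1.80, 1.82 and 1.78 in replicates 1, 2 and 3, against 2.56, 2.60 and 2.46 for the longer genes. The difference of these levels was -0.76, -0.78 and -0.68, with a mean of -0.74 ± 0.06 (SD, n = 3). The sets of library values did not overlap, and the gap was several times the spread in either set. The median FPKM was 1.47, 1.55 and 1.36 for short genes and 4.57, 4.74 and 4.03 for longer genes. The lower quartiles stood furthest apart in proportion, at 0.103 ± 0.0174 FPKM for short genes and 1.47 ± 0.206 for longer genes, whereas the upper quartiles were 7.56 ± 0.221 and 10.99 ± 0.421 FPKM.

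Among genes that reached 1 FPKM, the short genes were no lower than the longer ones. In the genes at 1 or more in a given library, the median was 6.51, 6.79 and 7.12 FPKM for short genes against 6.33, 6.46 and 5.95 FPKM for longer genes. Of these genes 37.7% ± 0.799 of the short and 33.9% ± 0.998 of the longer reached 10 FPKM, a difference of 3.8 ± 1.24 percentage points that had the same sign in all 3 libraries. When only genes with a mean FPKM of 1 or more were kept (261 short and 783 longer genes), the difference in level changed sign to 0.036 on the log2(FPKM + 1) scale, with library values from -0.02 to 0.11, so the sets did not differ beyond the spread. The lower average of the short genes thus lay in the number of genes at 0 or below 1. A selection on level cannot support a difference in either direction, and these values are given as a description.

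**Figure D2:**
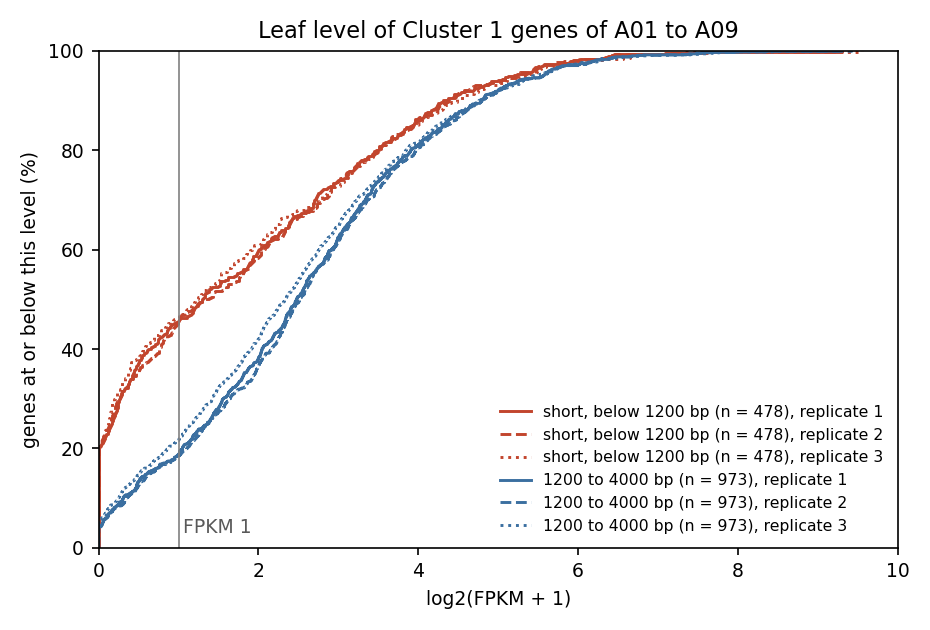
Cumulative share of genes (%) at or below a level on the log2(FPKM + 1) scale, drawn for each library, for the short genes (red) and the genes of 1200 to 4000 bp (blue). The red lines start at 20.3 to 21.1% at level 0, the blue lines start at 4.21 to 5.76%, and the curves come together toward the highest levels.

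The Cluster 1 genes of more than 4000 bp had 80.6% ± 2.97 at 1 or more, close to those of 1200 to 4000 bp. At 0 were 2.87% ± 0.436 of them, a lower share than the 5.0% ± 0.771 of the genes of 1200 to 4000 bp in every library. The 19353 genes of A01 to A09 outside the listed Cluster 1 genes were at 0 in 20.2% ± 0.265 and at 1 or more in 60.0% ± 0.860 of cases. The share at 0 of the short genes (20.6% ± 0.435) was thus close to that of genes outside the cluster, and their share at 1 or more (54.2% ± 0.362) was lower in every library. Their mean level, 1.80 ± 0.02, was also below the 2.04 ± 0.03 of the genes outside. Lengths of the genes outside the cluster were not used here, so this last comparison is not matched for length.

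Length went with the level inside the short set as well. The listed lengths ran from 156 to 1198 bp with a median of 593 bp. Of the 144 genes below 400 bp, 31.0% ± 0.401 were at 0, of the 181 genes of 400 to below 800 bp 20.1% ± 0.844, and of the 153 genes of 800 to below 1200 bp 11.5% ± 0.377. The share at 1 or more was 43.1% ± 0.694, 56.5% ± 0.319 and 61.9% ± 0.998 in the same classes. Each of these steps was larger than the spread between libraries, which does not cover the coarseness of classes of 144 to 181 genes. Among genes at 1 or more, the median also rose over these classes, at 5.40 ± 0.148, 6.66 ± 0.349 and 7.64 ± 0.564 FPKM. It was 5.93 ± 0.253 FPKM in the class of 1200 to below 2000 bp. The next class upward, 346 genes of 1200 to below 2000 bp, had 5.30% ± 0.929 at 0 and 76.5% ± 1.43 at 1 or more, so the highest class of short genes lay between its shorter neighbour and the longer genes.

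**Figure D3:**
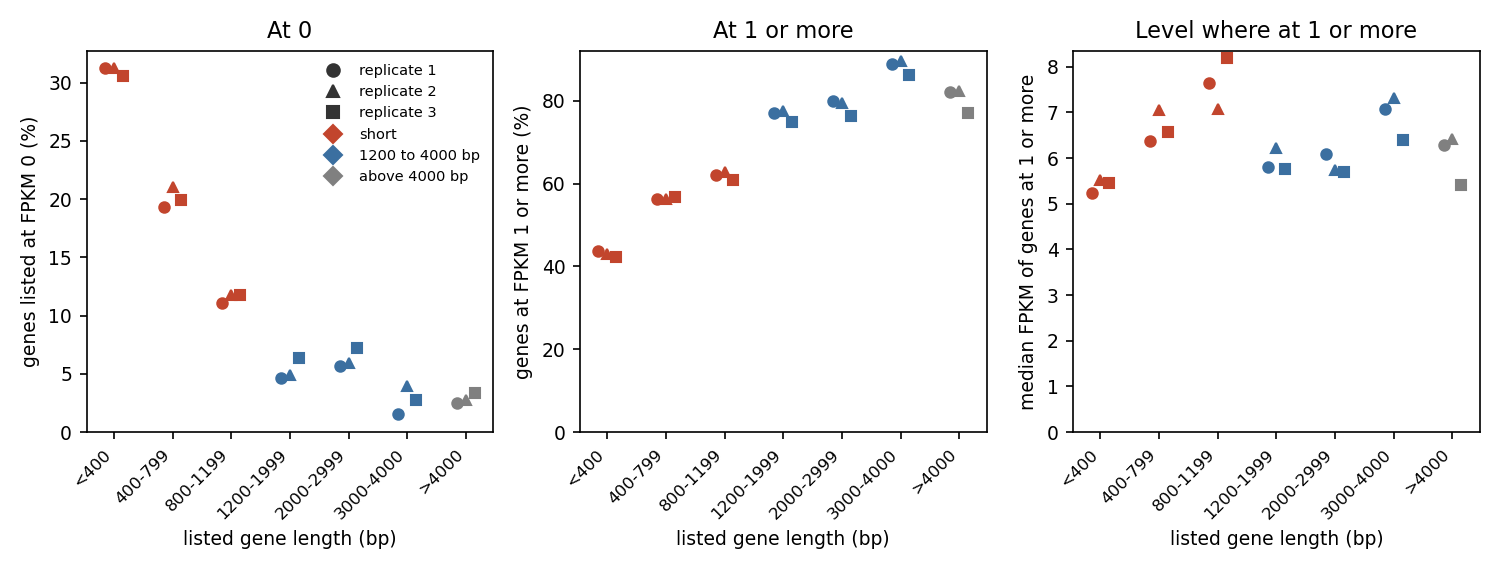
Share of Cluster 1 genes listed at 0 (%, left), share at FPKM 1 or more (%, middle) and median FPKM of the genes at 1 or more (right) by class of listed gene length in bp, with 1 point for each library. Red classes are the short genes, blue classes those of 1200 to 4000 bp and grey those above 4000 bp. From below 400 bp to the class from 800 to below 1200 bp the mean share at 0 goes from 31.0 to 11.5%. Over these 3 classes the median of the genes at 1 or more rises from 5.40 to 7.64 FPKM, as a mean over libraries.

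Across the 478 short genes, the Spearman correlation between listed length and mean FPKM was 0.23, given as a description over genes that share the same libraries. Among the 973 longer genes it was 0.09. FPKM is divided by transcript length, and a short transcript yields fewer fragments at the same FPKM, which bears on how often a gene is found at 0. Whether the listed gene length equals the transcript length used in FPKM was not checked. The 5th percentile of the values above 0 was 0.107, 0.106 and 0.0775 FPKM for short genes, against 0.197, 0.271 and 0.202 FPKM for longer genes. The part of fragment number in the zeros was not tested. With the limit at FPKM 0.1 in place of 0, the shares were 25.0% ± 1.1 and 7.30% ± 0.741, a difference of 17.7 ± 0.674 percentage points.

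Of the short genes, 357 were above 0 in all 3 libraries, 23 in 2 libraries, 21 in 1 library and 77 in none. The 77 genes at 0 throughout are 16.1% of the short genes, against 29 genes or 2.98% of the longer set. For the 44 short genes found in some libraries only, the highest value in any library was 1.36 FPKM and the median of their highest values was 0.135 FPKM. Most changes between detected and not detected therefore happened at very low levels. At 1 FPKM or more in all 3 libraries were 241 short genes (50.4%) and 751 longer genes (77.2%), and 33 short genes fell on different sides of 1 in different libraries.

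By mean FPKM over the libraries, 140 short genes were above 0 and below 1, 161 from 1 to below 10 and 100 at 10 or more. Only 13 reached 50 FPKM and 3 reached 100 FPKM, against 37 and 11 of the longer genes. The files and the reference gene table do not pair these identifiers with gene names or functions, so the genes are given by identifier. Together the short genes took 0.443 to 0.444% of all FPKM in a library, although they are 0.678% of the genes. The highest gene alone held 15.5% of the short genes' summed FPKM and the 10 highest held 36.4%.

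The highest short gene was Gh_A02G1235 on A02, listed at 695 bp, with 631, 618 and 748 FPKM in replicates 1, 2 and 3. It was also 1 of the 4 short genes in the blue co-expression module that the study listed. The next 2 were consecutive in gene number on A03. Gh_A03G0947, listed at 252 bp, had 194, 181 and 158 FPKM, and Gh_A03G0946, listed at 1068 bp, had 135, 142 and 149 FPKM. Apart from Gh_A02G1235, the pair stood above all other short genes in every library.

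A group of genes near 90 FPKM followed. Gh_A08G1067 had 84.6, 86.2 and 104 FPKM, Gh_A04G0630 had 88.0, 81.8 and 99.2 FPKM, and Gh_A07G1224 had 79.5, 81.6 and 102 FPKM. Gh_A09G1478 on A09 had 81.8, 77.0 and 102 FPKM. These 4 overlapped in their library values, so their order is not separated from the spread, and in each of them replicate 3 was highest.

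On the other chromosomes the highest short gene was lower. Gh_A06G1846 on A06 had 46.4, 44.3 and 47.4 FPKM, and Gh_A01G1086 on A01 had 42.6, 44.95 and 43.6 FPKM. On A05, which holds the most short genes, the highest was Gh_A05G3264 with 31.0, 34.1 and 30.6 FPKM. Its 3 values were below those of the other chromosomes' leading genes in every library.

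In the middle of the distribution stood genes just above 1 FPKM. Gh_A01G0259, listed at 660 bp, had 1.60, 1.49 and 1.43 FPKM, and Gh_A02G0399, listed at 243 bp, had 1.99, 1.65 and 1.22 FPKM. The shortest gene of the set, Gh_A04G0766 at 156 bp, had 0.169, 0.345 and 0.597 FPKM. Gh_A08G2400 at 168 bp was listed at 0 in all 3 libraries. Genes at the very low end of length thus included detected and undetected ones.

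At the length limit of 1200 bp the values on the 2 sides were mixed. Gh_A03G0306 at 1198 bp was listed at 0 in all 3 libraries, and Gh_A01G2151 at 1194 bp had 17.9, 15.4 and 21.3 FPKM. Just beyond the limit, Gh_A06G1646 at 1200 bp had 7.94, 7.44 and 8.55 FPKM and Gh_A01G1629 at 1203 bp had 49.8, 50.8 and 46.6 FPKM. These few genes thus showed no step at the limit. The length classes on its 2 sides did differ, with 61.9% of genes of 800 to below 1200 bp and 76.5% of genes of 1200 to below 2000 bp at 1 FPKM or more.

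The short genes varied more between libraries than the longer ones at the same level. Among genes with a mean of 1 to below 3 FPKM, the median SD of log2(FPKM + 1) over the libraries was 0.24 for the 70 short genes and 0.18 for the 185 longer ones. From 3 to below 10 FPKM it was 0.18 for 91 short and 0.15 for 329 longer genes, and at 10 FPKM or more 0.15 for 100 short and 0.10 for 269 longer genes. The spread was wider for short genes in each of these bands.

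The short genes with the widest spread among those at a mean of 1 or more were on A09, A05 and A03. Gh_A09G1633, listed at 159 bp, had 2.72, 2.08 and 0.494 FPKM. Gh_A05G1428 at 1130 bp had 17.4, 20.7 and 8.17 FPKM, and Gh_A03G1770 at 237 bp had 1.15, 3.25 and 0.787 FPKM. In all 3 of them replicate 3 was the lowest library.

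Replicate 3 behaved differently in the 2 length groups. Among genes with a mean of 1 or more, the highest value was in replicate 3 for 117 of 261 short genes (44.8%), against 197 of 783 longer genes (25.2%). The lowest value was in replicate 3 for 92 short genes (35.2%), against 453 longer genes (57.9%). The median FPKM was nevertheless lowest in replicate 3 in both groups, at 1.36 for the short genes and 4.03 for the longer genes. Leaving out each library in turn kept the difference in mean level between -0.77 and -0.72.

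The 478 short genes were spread over all 9 chromosomes, from 35 on A06 to 94 on A05. They made up 24.8% of the listed Cluster 1 genes over all 9, with the lowest share on A06 (18.2%) and the highest on A04 (35.3%). Per 100 genes of a chromosome there were 1.65 short genes on A06 and 3.22 on A04. A04 thus held the most short Cluster 1 genes for its size.

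On every chromosome the short genes had a lower mean level than the longer genes in all 3 libraries, and likewise a lower share at 1 FPKM or more. The difference in mean level on the log2(FPKM + 1) scale ran from -1.09 ± 0.09 on A04 to -0.38 ± 0.05 on A07 (SD, n = 3). On A04, 43.1% ± 2.41 of 48 short genes reached 1 FPKM, against 79.3% ± 2.31 of 66 longer genes. On A07, 56.7% ± 3.25 of 47 short genes and 80.7% ± 1.03 of 112 longer genes did so.

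Levels of the short genes themselves were highest on A07, A03 and A01, at 2.10 ± 0.05, 2.05 ± 0.08 and 2.03 ± 0.03 on the log2(FPKM + 1) scale. They were lowest on A06 at 1.45 ± 0.08, A02 at 1.54 ± 0.02 and A04 at 1.58 ± 0.01. The library values of A07 and A03 overlapped, as did those of A03 and A01, whereas those of A06, A02 and A04 lay close together without overlap. A08 at 1.89 ± 0.01, A09 at 1.78 ± 0.01 and A05 at 1.72 ± 0.03 lay between.

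The share of short genes at 0 was smallest on A01 (11.5% ± 2.78) and A07 (12.8% ± 3.69), which overlapped. It was largest on A04, at 31.2% ± 2.08, and it was 26.7% ± 1.65 on A06, 26.7% ± 1.15 on A08 and 24.6% ± 3.04 on A02. No chromosome had a lower share at 0 for short genes than for longer genes in any library. With 35 to 94 short genes a chromosome, a few genes move these shares by several percentage points, and the SD over libraries does not cover that coarseness.

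**Figure D4:**
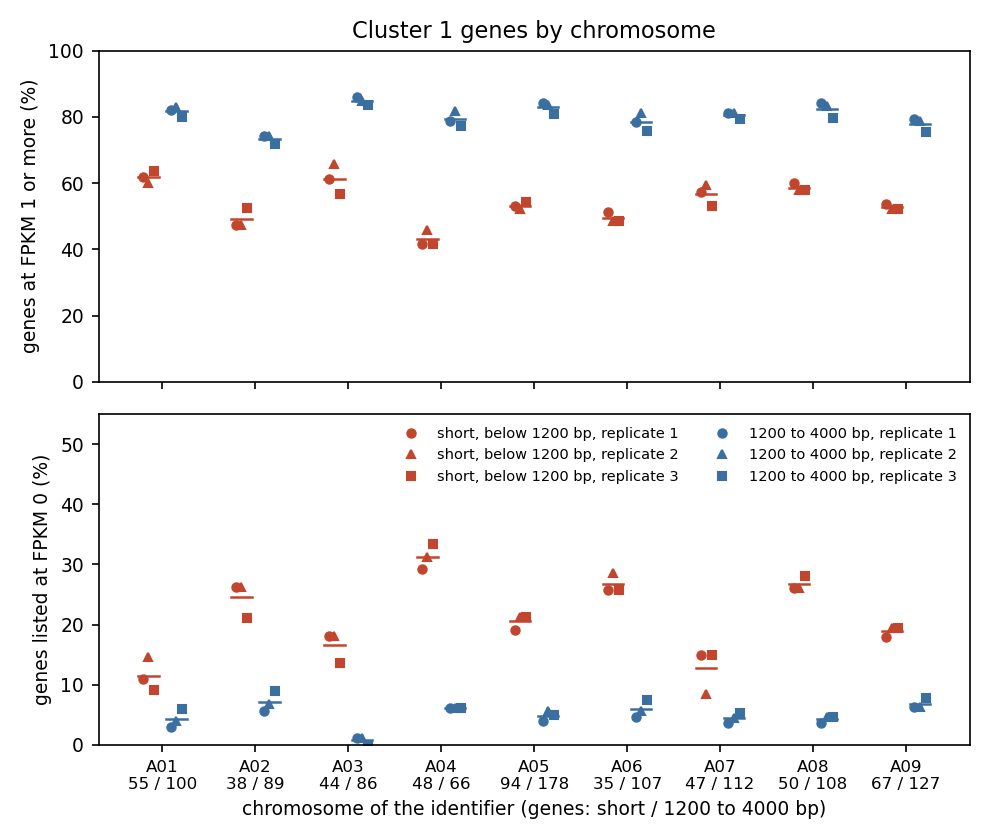
Share of Cluster 1 genes at FPKM 1 or more (%, upper panel) and at 0 (%, lower panel) on chromosomes A01 to A09, short genes in red at left and genes of 1200 to 4000 bp in blue at right of each position. Symbols are the 3 libraries and bars their mean. Short genes are below the longer genes in the upper panel on all 9 chromosomes, with means of 43.1 to 61.8% against 73.4 to 84.9%.

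Some identifiers of A01 to A09 belong to genes on unplaced scaffolds assigned to these chromosomes. These were 58 short genes (12.1%) and 97 longer genes (9.97%). The 58 scaffold genes were at 0 in 30.5% ± 0.995 and at 1 FPKM or more in 55.2% ± 2.99 of cases, and the 420 short genes on the assembled chromosomes in 19.3% ± 0.476 and 54.0% ± 0.714. With only genes on assembled chromosomes the difference from the longer genes in the share at 0 was 14.8 percentage points.

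The genes next to the short genes had levels like those next to the longer genes. Neighbours by gene number that belong to the same length group of Cluster 1 were left out, while Cluster 1 genes of other lengths remained. Of the 890 such neighbours of the short genes, 64.1% ± 0.797 reached 1 FPKM, against 64.2% ± 0.941 of the 1782 of the longer genes. At 0 were 16.9% ± 0.626 and 15.8% ± 0.425 of these neighbours. The neighbourhoods of short and longer genes thus had nearly equal shares at 1 FPKM or more.

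Few genes of either length group were among those that the study lists by function or expression pattern. A list of transcription factors with biased expression between the subgenomes held 1 of the 478 short genes (0.209%) and 6 of the 973 longer ones (0.617%). The short one, Gh_A01G1274, is given there as an SBP factor, a plant family of DNA-binding proteins named after the SQUAMOSA promoter, and it had 5.52, 5.92 and 5.92 FPKM. The blue co-expression module held 4 short (0.837%) and 3 longer genes (0.308%), the other order. Besides Gh_A02G1235 these were Gh_A07G1421 with 35.6, 36.7 and 52.8 FPKM, Gh_A08G2403 with 4.30, 4.25 and 4.49 FPKM, and Gh_A05G0936 with 2.07, 0.901 and 1.31 FPKM. The study chose the transcription factor list on these libraries and built the module from genes with biased expression between the subgenomes. Neither is therefore independent evidence of direction, and the counts are too few to compare.

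A further comparison set short genes against their D homeologs, as far as a homeolog is listed for A01 and the part of A02 analysed here. Of the 93 short genes on A01 and A02, 40 had a listed D copy, 32 of them on A01 and 8 on A02. In 29 of the 40 pairs both copies had a mean of 1 FPKM or more, in 6 only the D copy did, in 5 neither did, and in 0 only the A copy did. Of these pairs 5, all on A02, came only from a list of expressed pairs, and in all 5 both copies had a mean of 1 FPKM or more, so their presence is not independent of expression. Only the A copies were chosen by length and cluster. The length of the D copies was not used, so the copies are not matched for length. The mean level of the short A copies was 2.61 ± 0.03 and that of their D homeologs 2.77 ± 0.04 on the log2(FPKM + 1) scale. The difference A minus D was -0.17, -0.16 and -0.17 in replicates 1, 2 and 3, a mean of -0.16 ± 0.0041 (SD, n = 3), and the corresponding value in 119 pairs of longer genes was -0.04 ± 0.013. By this mean over pairs, the A copies were lower in every library in both length groups. The median over the short pairs had the other order, at 5.29 FPKM for the A and 4.74 FPKM for the D copies. In the longer pairs the medians were 7.28 and 7.29 FPKM. The SD over libraries does not cover the spread between pairs. Single pairs went both ways. Among pairs with a mean of 1 FPKM or more in at least one copy, the A copy was lower in 20 short and 64 longer pairs. It was higher in 15 short and 45 longer pairs.

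Pair by pair, 35 of the 40 pairs had a mean of 1 FPKM or more in at least one copy and were tested with limma among 1999 listed pairs, with Benjamini-Hochberg adjustment over all of them. A pair was called at an adjusted p below 0.05 and an absolute log2 fold change of 1 or more. The A copy was higher in 3 short pairs (8.57%), where the background over all tested pairs was 8.65%. The D copy was higher in 5 short pairs (14.3%), with a background of 10.6%, and 27 pairs were not called. Both shares stand near the background and are no result about the short genes. Without replicate 1 or without replicate 2 the short pairs with a higher D copy were 4, since the pair of Gh_A01G0127 was then not called. In the longer set 6 and 7 of 109 tested pairs were called in these directions.

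The largest fold change in favour of the A copy was in Gh_A01G0580, with 8.56, 11.3 and 13.3 FPKM against 1.34, 1.63 and 1.54 FPKM for its D homeolog Gh_D01G0591. Its log2 fold change was 2.25 (SE 0.15, limma adjusted p 1.12e-05). Gh_A02G1235 was next, with 631, 618 and 748 FPKM against 204, 212 and 274 FPKM for Gh_D05G2150, and a log2 fold change of 1.54 (SE 0.14, limma adjusted p 5.72e-05). In each of these pairs the lowest A value was above the highest D value. The listed homeolog of Gh_A02G1235 lies on a chromosome of another number, as in 2 of the 40 pairs.

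In the other direction, Gh_A01G0003 was listed at 0 in all 3 libraries, against 2.53, 3.70 and 4.35 FPKM for Gh_D01G0001, so no fold is given (limma adjusted p 1.47e-05). Gh_A01G1311 had 1.87, 2.01 and 3.05 FPKM against 7.60, 7.30 and 8.82 FPKM for Gh_D01G1556, a log2 fold change of -1.44 (SE 0.15, limma adjusted p 0.000112). The copies of these pairs did not overlap in any library. The short SBP gene Gh_A01G1274 had 5.52, 5.92 and 5.92 FPKM against 2.59, 2.39 and 2.98 FPKM for Gh_D01G1495. Its log2 fold change of 0.90 (limma adjusted p 0.000158) was below the limit of 1 with the pseudocount of 1, and the pair was called with pseudocounts of 0.42 and 0.1.

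**Figure D5:**
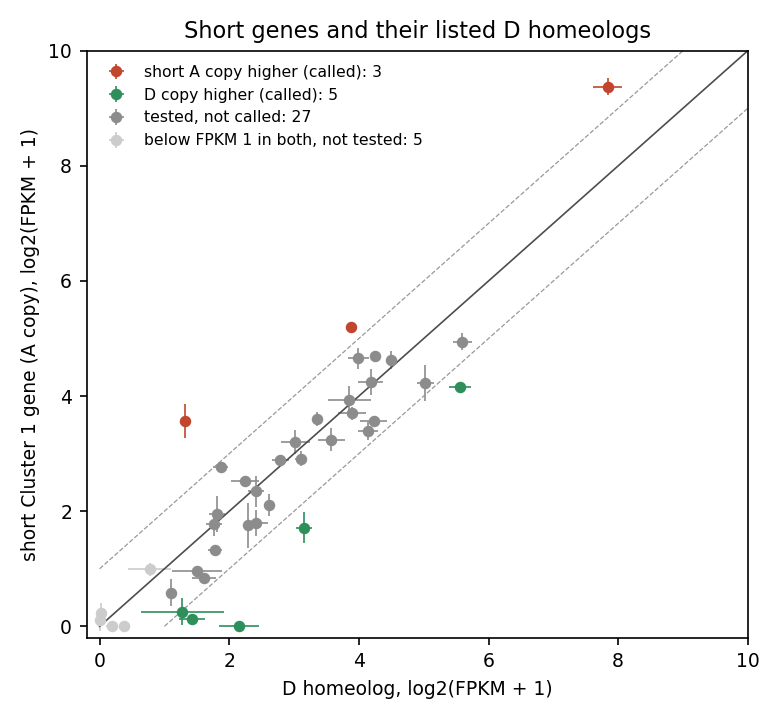
Mean level on the log2(FPKM + 1) scale of the 40 short A genes (vertical axis) and of their listed D homeologs (horizontal axis), with SD over the 3 libraries as bars. The solid line marks equal levels and the dashed lines a log2 difference of 1 in either direction. The 3 called A-higher pairs lie above the band, the 5 called D-higher pairs below it, and 27 tested pairs are not called.

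Short genes of A01 with a listed homeolog were higher than those without. The 32 with one had a median of 6.11 FPKM and 74.0% ± 1.80 of them reached 1 FPKM, against a median of 0.481 FPKM and 44.9% ± 2.51 of the 23 without. The longer genes of A01 showed the same order, with medians of 7.47 FPKM for 73 genes with a listed homeolog and 3.90 FPKM for 27 without. On the log2(FPKM + 1) scale the difference between short and longer genes was present in both groups of A01, with levels of 2.48 ± 0.05 against 3.09 ± 0.06 where a homeolog was listed, and 1.41 ± 0.02 against 2.08 ± 0.05 where none was.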

How the data were processed

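RNA-seq of TM-1 leaves (3 replicate libraries, grouped by the sample titles) was analysed. According to the study's methods and the labels, the authors trimmed reads with fastp (quality 25, length 20 bp), aligned them to the TM-1 genome by HISAT2, and took FPKM from StringTie; versions are not given in the sources used here. The deposited FPKM of each gene was used as it stands. FPKM are not counts, and the files hold neither counts nor depths. The study states read totals for the libraries, which were not used here, and no counting interval is given. Among genes below 0.05 FPKM the commonest ratio between libraries was 0.96, 0.99 or 1.04, met by 63 to 74 of 344 to 354 genes, too few to recover reads.

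Cluster 1 membership, gene length and homeolog pairs came from the study's lists. Only part of these lists was used. Cluster 1 was taken as whole for A01 to A09, since genes of A10 follow in it, and the homeologs were taken as whole for A01, with part of A02. That they are whole there was not tested. No expression value was taken from them. The gene length is that listed and was used only for grouping. Levels are log2(FPKM + 1) with a pseudocount of 1, without a filter on low values, compared within each library. Homeolog pairs with a mean of 1 FPKM or more in at least one copy were compared by limma (version 3.58.1, R 4.3.3), without a block. The A and D copies of a pair come from the same library, and their deviations from the gene means correlated at 0.57 over 1999 pairs (0.22, 0.57 and 0.64 by library). The pair test was tested on simulated data with A and D deviations drawn independently, which does not cover this correlation. Other steps used Python 3.11.15 with numpy 2.4.6, pandas 2.3.3, scipy 1.17.1 and matplotlib 3.10.9. Of the identifiers, 0 were found in the reference gene table.

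Named genes were the 6 highest, the 3 with the largest SD of log2(FPKM + 1) at a mean of 1 or more, those in the study's lists of biased transcription factors and the blue module, the 2 called pairs of largest fold change in each direction, the 2 genes on either side of 1200 bp, the 3 shortest, the 2 nearest the median and the highest of each chromosome. The members and lists were chosen with earlier results of these data known. Alternatives were other pseudocounts, length limits, thresholds, filters and scaling, genes on assembled chromosomes only, leaving out each library, and for pairs a block, a variance trend, another list and the adjusted p alone.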

Additional observations from a re-analysis of the deposited data

How the results depend on the processing

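The difference in mean level between short genes and those of 1200 to 4000 bp was -1.40 with a pseudocount of 0.1, -0.99 with 0.42, -0.47 with genes of mean FPKM above 0 only, -0.83 with a length limit of 1000 bp and -0.64 with 1500 bp. It changed sign to 0.036 with genes of mean FPKM of 1 or more only, a filter that takes out the low genes by construction. The difference in the share at 0 was 16.8 and 12.8 percentage points with limits of 1000 and 1500 bp, 14.8 with genes on assembled chromosomes only and 17.7 with FPKM below 0.1. The difference in the share at 1 FPKM or more was -27.6 and -23.6 percentage points with these length limits, and the share reaching 0.5 or 2 FPKM differed by -24.1 and -22.8. Without single replicates the ranges were -0.77 to -0.72 for the level, 15.4 to 16.1 for the share at 0 and -27.0 to -25.8 for the share at 1 or more. With the adjusted p alone the called pairs were 6 with the A copy higher and 16 with the D copy higher, among 547 and 580 of 1999 pairs. Without single replicates there were 3 to 3 and 4 to 5 such pairs. Gh_A01G0127, 1 of the 5 genes with a higher D copy, was not called without replicate 1, without replicate 2 or with no filter on low values. With library as a replicate block the calls were again 3 and 5, and the block changed no call among the short pairs. With pseudocounts of 0.42 and 0.1 Gh_A01G1274 was called, making 4 pairs with the A copy higher, and the pairs with the D copy higher were 6 and 7, with Gh_A01G0493 added under both and Gh_A01G0626 under 0.1. Fragment numbers per gene were not used here, which limits what the zeros of short genes show.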

Other observations

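Short Cluster 1 genes that are consecutive in gene number mostly shared their side of 1 FPKM. Of the 478 short genes, 50 were next to another short Cluster 1 gene, which gave 26 adjacent pairs. By mean FPKM both genes were at 1 or more in 13 pairs, both below 1 in 10 and on different sides in 3. Among the genes of 1200 to 4000 bp, 56 adjacent pairs had 43 with both at 1 or more, 4 with both below 1 and 9 on different sides. By mean FPKM 54.6% of all short genes and 80.5% of all longer ones were at 1 or more, so part of this sharing follows from these shares. Some short genes stand in more than 1 of the pairs. These counts were not tested.

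The listed spans of Gh_A09G0344 (792 bp) and Gh_A09G0345 (1006 bp) overlap. They had 8.74, 8.51 and 7.53 FPKM and 7.71, 8.44 and 8.41 FPKM, so their library values overlapped. Reads from the shared stretch cannot be told apart without strand, and these values are uncertain. Both were named after their values were seen. Among the other short pairs, Gh_A04G0177 had 64.0, 63.3 and 67.8 FPKM beside Gh_A04G0176 with 13.4, 14.4 and 15.3 FPKM, so the members of this pair differed several-fold in every library. This pair too was chosen after its values were seen.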
